A study of Homo sapiens with 12 samples.

Results

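METTL16-bound transcripts were examined in HepG2 cells, a human line derived from a liver tumour. RNA immunoprecipitation followed by sequencing (RIP-seq) compares the RNA pulled down with a protein with the input RNA taken beforehand. The series held 12 samples, namely RIP and input, each in duplicate, for METTL16, eIF3a and eIF3b. Per the labels, the cells used here were stably infected with pmiRNA1-3XFlag-METTL16, and the RIP used a Flag antibody, so the tagged, overexpressed protein was recovered and not the endogenous one. No knockout, drug or time course entered these samples, and METTL16 replicates 1 and 2, described as biological replicates, each had a RIP and an input. A peak is an exonic interval that the authors' peak caller found enriched in RIP over input. None of the 12 samples was labelled as a RIP with a control antibody or a Flag RIP of untagged cells. RNA recovered unspecifically can therefore not be told apart, and bound below means enriched over input. A gene was called bound when its name carried a peak in both METTL16 lists. By this rule 4612 of the 7554 genes with a METTL16 peak in either replicate were bound, which is 61.1% (95% Wilson interval 59.9% to 62.1%, counting error only), out of 10830 gene names with a peak in any list of the series. Of 20020 protein coding genes, 4592 were bound, or 22.9%. The files hold no read numbers, so the depth behind a peak is unknown, and with RIP set against input inside the peak calling there was no further group to compare, so no test was run on the values given here.

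METTL16 is a methyltransferase that places N6-methyladenosine (m6A) on the spliceosomal U6 RNA and on a few mRNAs, and it recognises hairpins whose loop holds TACAGAGAA in DNA letters or a close variant. The best known of its mRNA substrates is MAT2A, which codes for the enzyme that makes S-adenosylmethionine, the methyl donor of the cell. Neither the U6 genes nor MALAT1, a nuclear long non-coding RNA reported to be bound by METTL16, appeared in any list. The lists held almost no non-coding RNA at all, with 99.7% of peaks on protein coding genes and 13 and 15 peaks on matched non-coding genes in replicates 1 and 2, so these RNAs could not be assessed.

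MAT2A (chromosome 2, 85539168 to 85545281 on GRCh38, plus strand) was bound, but its peaks lay in different places in the replicates. Its canonical transcript holds 6 matches to these letters, all in the 3′ UTR in exon 9. They are shown because they are the letters METTL16 is known for, each with 10 bases on either side and the matched letters in capitals, as read from the reference genome.
MAT2A site 1, chr2:85543802-85543830: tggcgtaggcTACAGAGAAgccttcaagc
MAT2A site 2, chr2:85544589-85544617: tgtgatgtcaTACAGAGAAgtcacagggc
MAT2A site 3, chr2:85544774-85544802: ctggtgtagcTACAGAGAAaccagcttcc
MAT2A site 4, chr2:85544889-85544917: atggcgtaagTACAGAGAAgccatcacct
MAT2A site 5, chr2:85545004-85545032: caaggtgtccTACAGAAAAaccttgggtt
MAT2A site 6, chr2:85545112-85545140: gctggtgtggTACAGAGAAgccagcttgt
In replicate 2, 1 peak of 536 bases (85544596 to 85545131) with a fold enrichment of 5.27 over input covered the capital letters of sites 2 to 6. Site 1, which lies closest to the stop codon, was under no peak. In replicate 1 none of the 6 sites was under a peak. The 2 peaks of replicate 1 were in the coding part, over exons 1 to 5 (507 exonic bases, 4.82-fold) and exons 6 to 7 (358 bases, 5.15-fold). Replicate 2 had further peaks of 90 bases in exon 1 (2.44-fold) and 180 bases in exons 8 to 9 (3.9-fold). Only 5.69% of the MAT2A bases under a peak in either replicate were under a peak in both, so at this gene the replicates shared the gene name and little of the location.

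The bound genes were then examined for how many peaks they carried and how wide these were. Most carried few. The mean was 2.49 peaks per bound gene in replicate 1 and 2.37 in replicate 2 (mean 2.43 ± 0.0865, SD, n = 2), with a median of 2 in both. In replicate 1, 1800 bound genes (39.0%) had 1 peak and 542 (11.8%) had 5 or more. In replicate 2 these numbers were 1877 (40.7%) and 495 (10.7%). The number of peaks rose with transcript length, with a Spearman correlation across 4592 genes of 0.372 in replicate 1 and 0.261 in replicate 2. The median peak was 181 exonic bases wide in both replicates, and the middle part of the distribution, from the lower to the upper quartile, ran from 121 to 299 bases in replicate 1 and from 121 to 328 in replicate 2. Of the peaks on bound genes, 58.4% and 54.4% lay in 1 exon, and 4.23% and 6.53% joined 5 or more exonic blocks. The widest peaks reached 6204 and 6414 bases. All peaks of a bound gene together covered a median of 390 bases in replicate 1 and 421 bases in replicate 2, or 12.1% and 13.4% of its canonical transcript.

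**Figure D1:**
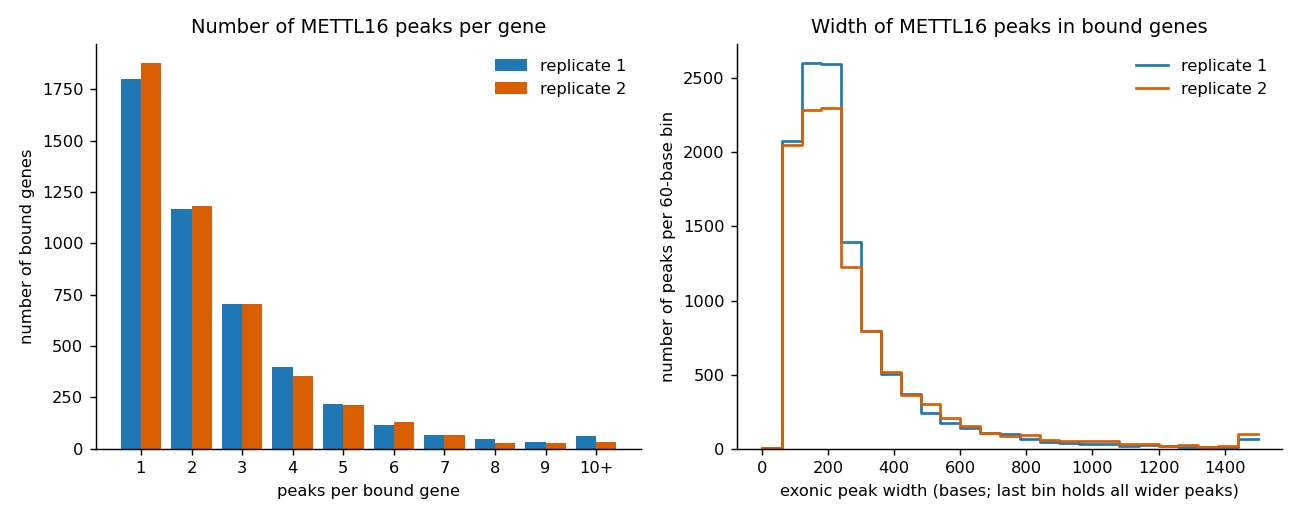
Left, number of bound genes (vertical axis) by the number of METTL16 peaks they carried (horizontal axis) in replicates 1 and 2, for the 4612 bound genes. Right, number of peaks per 60-base bin of exonic width; most genes had 1 or 2 peaks and the replicates had nearly the same distribution of widths, with a shared median of 181 bases.

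The genes with the most peaks all had canonical transcripts of 11194 bases or more. KMT2D (chromosome 12, 49018975 to 49060794, minus strand), a histone H3 lysine 4 methyltransferase, had 24 peaks in replicate 1 and 22 in replicate 2. These spread from exon 2 to the 3′ UTR in exon 55 of a transcript of 20635 bases, and 47.3% of the bases under a peak in either replicate were under one in both. PKD1, which codes for the membrane protein polycystin-1, had 20 and 21 peaks, but only 30.3% of the bases were shared. Copies of part of PKD1 exist elsewhere on chromosome 16, and how reads that fit several copies were placed was not given in the sources used here. LAMA5, a laminin chain of basement membranes, had 15 peaks in each replicate, at most 4.70-fold and 5.33-fold enriched. FOXK1, a forkhead transcription factor, had 13 and 16 peaks, and MAVS, the mitochondrial adaptor of antiviral RNA sensing, had 13 and 12.

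By width, PLEC led the bound genes. It codes for plectin, a giant linker of the cytoskeleton, and its peaks covered 12000 exonic bases in replicate 1 and 13285 in replicate 2 of a transcript of 14804 bases. Its widest peak joined 19 exonic blocks over 6204 bases in replicate 1, with a fold enrichment of 63.6, and 20 blocks over 6414 bases in replicate 2, with a fold enrichment of 124. The overlap of the PLEC peaks was 80.9% of bases. TNRC18 was covered by 8032 and 8960 bases. FASN, the fatty acid synthase, was covered by 7083 and 7771 bases in few, long peaks (5 and 3), and 91.1% of these bases were shared. KMT2D was covered by 8953 and 5865 bases.

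Agreement between the replicates was next described by gene, by base and by enrichment. Of the 5829 genes in replicate 1, 79.1% were also in replicate 2, and of the 6337 genes in replicate 2, 72.8% were also in replicate 1. Bound genes held most of the peaks, with 87.1% and 83.2% of them. Within bound genes, 1774312 of 4232610 bases under a peak in either replicate were under a peak in both, or 41.9%. For the median gene this share was 35.7%, with quartiles of 16.0% and 56.4%. The replicates shared no base in 701 bound genes (15.2%) and covered exactly the same bases in 88 genes (1.91%), of which 86 had 1 peak. The number of peaks was equal in 1914 genes (41.5%) and differed by at most 1 in 3583 (77.7%). Peak by peak, 64.6% of replicate 1 peaks and 65.8% of replicate 2 peaks on bound genes overlapped a peak of the other replicate by at least 1 base.

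How often a gene recurred varied with its number of peaks and its p-value. A gene with 1 peak in replicate 1 was found in replicate 2 in 66.5% of cases, against 85.2% with 2 peaks and 97.9% with 6 or more. Starting from replicate 2 these shares were 57.9%, 81.5% and 99.6%. When genes were sorted by their smallest p-value into 5 equal classes, the share found in the other replicate rose from 56% in the class with the largest p-values to 97.3% in the class with the smallest in replicate 1, and from 43.6% to 94.5% in replicate 2. Sorting by fold enrichment gave a much flatter course. From the lowest to the highest class the shares were 72.5%, 77.6%, 82.8%, 82.9% and 79.8% in replicate 1 and 63.5%, 73.3%, 73.5%, 80.0% and 73.7% in replicate 2. In both replicates the class with the highest fold enrichment recurred less often than the class below it, with overlapping Wilson intervals in replicate 1 (77.4% to 82.0% against 80.6% to 84.9%) and separate ones in replicate 2 (71.2% to 76.0% against 77.7% to 82.2%). The intervals cover counting error only and are no test between classes. Both directions rest on the same pair of replicates. The part of expression level in these shares was not tested.

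**Figure D2:**
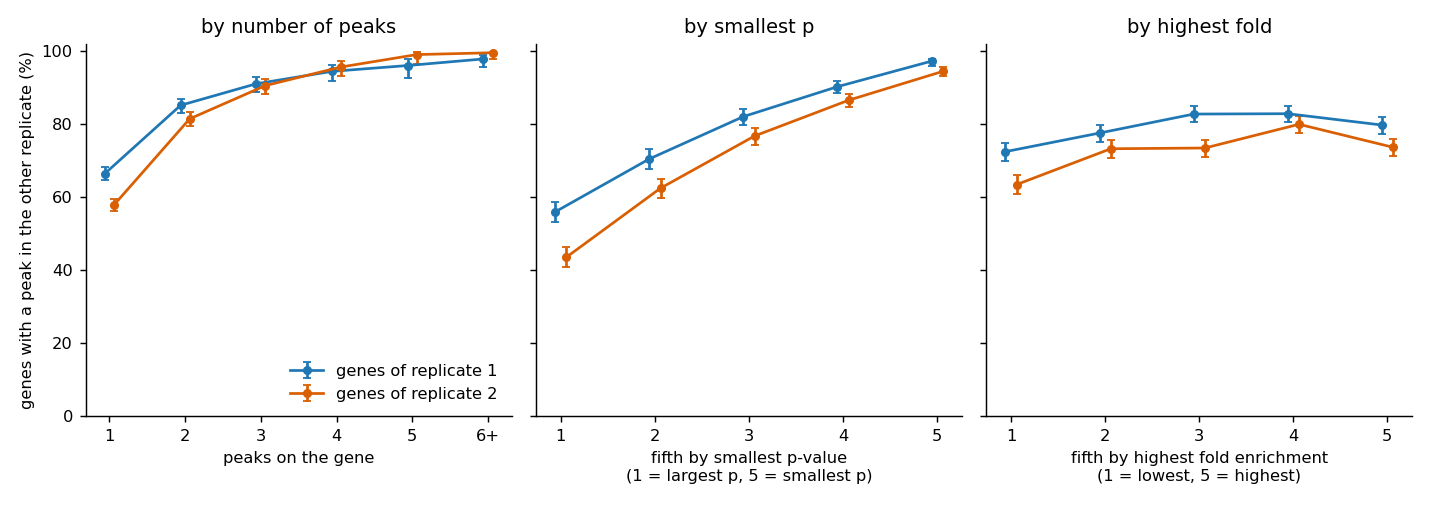
Share of the genes of 1 replicate that had a peak in the other (vertical axis, percent), by number of peaks on the gene, by quintile of smallest p-value and by quintile of highest fold enrichment. Points are shares, bars are 95% Wilson intervals, and colours give the replicate whose genes were sorted; the share rises to 97.9% and 99.6% with peak number but stays between 63.5% and 82.9% over the fold classes.

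Genes found in 1 replicate only, 1217 in replicate 1 and 1725 in replicate 2, had larger p-values, fewer covered bases and lower fold values. Their median smallest p-value had a log10 of -4.66 in replicate 1, against -11.3 for bound genes, and of -4.42 against -11.1 in replicate 2. Their peaks covered a median of 151 bases in either replicate, against 390 and 421 for bound genes. The median of the highest fold enrichment differed less, at 3.52 against 4.16 and at 3.71 against 4.42. A few of them had extreme values all the same. MEIS3, a homeobox factor, carried a peak of 270 bases in exon 1 with a fold enrichment of 3420 in replicate 1, the highest value of that list, and none in replicate 2. LRRC73 (233-fold), METTL24 (203-fold), ZNF566 (87.4-fold) and F5, coagulation factor V (82.1-fold), followed. In replicate 2 alone, CERKL reached 465-fold, STX8 415-fold, RSPO4 236-fold and CT62 119-fold.

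Across the 4612 bound genes, the highest fold enrichment per gene correlated between the replicates with a Spearman coefficient of 0.673 (Pearson coefficient of 0.699 on the log2 scale). Genes are not independent replicates, and the coefficients are given as a description. The ratio of replicate 2 to replicate 1 had a median of 1.06, and 3419 genes (74.1%) were within a factor of 2. Peak number correlated with a Spearman coefficient of 0.576 and covered bases with 0.661. A fold enrichment of at least 10 in both replicates was reached by 589 genes, and of at least 50 by 37.

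The deposited fold values were not spread evenly. Many were whole multiples of 1 step, which was 1.32 in replicate 1 and 1.19 in replicate 2. Of the replicate 1 peaks on bound genes with a fold enrichment from 20 to below 40, 306 of 391 (78.3%) were a whole multiple of the step within 0.05, a tolerance that takes up 7.55% of the range. In replicate 2 this held for 411 of 446 (92.2%), against 8.40% of the range. For peaks from 10 to below 20 the shares were 60% and 57.5%. In replicate 1, 85 peaks carried the same pair of a 15.9-fold enrichment and a log10 p of -3.51, and in replicate 2, 118 peaks carried a 21.4-fold enrichment and a log10 p of -3.93. What set the steps was not tested. Peaks on the steps had larger p-values than the others. Between 20-fold and 40-fold the median log10 p was -6.76 on the steps and -62.0 off them in replicate 1, and -5.42 and -61.5 in replicate 2. Of the 589 genes with at least 10-fold enrichment in both replicates, 193 (32.8%) had a log10 p of -10 or less at that peak in both, close to the 32.3% among all bound genes.

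**Figure D3:**
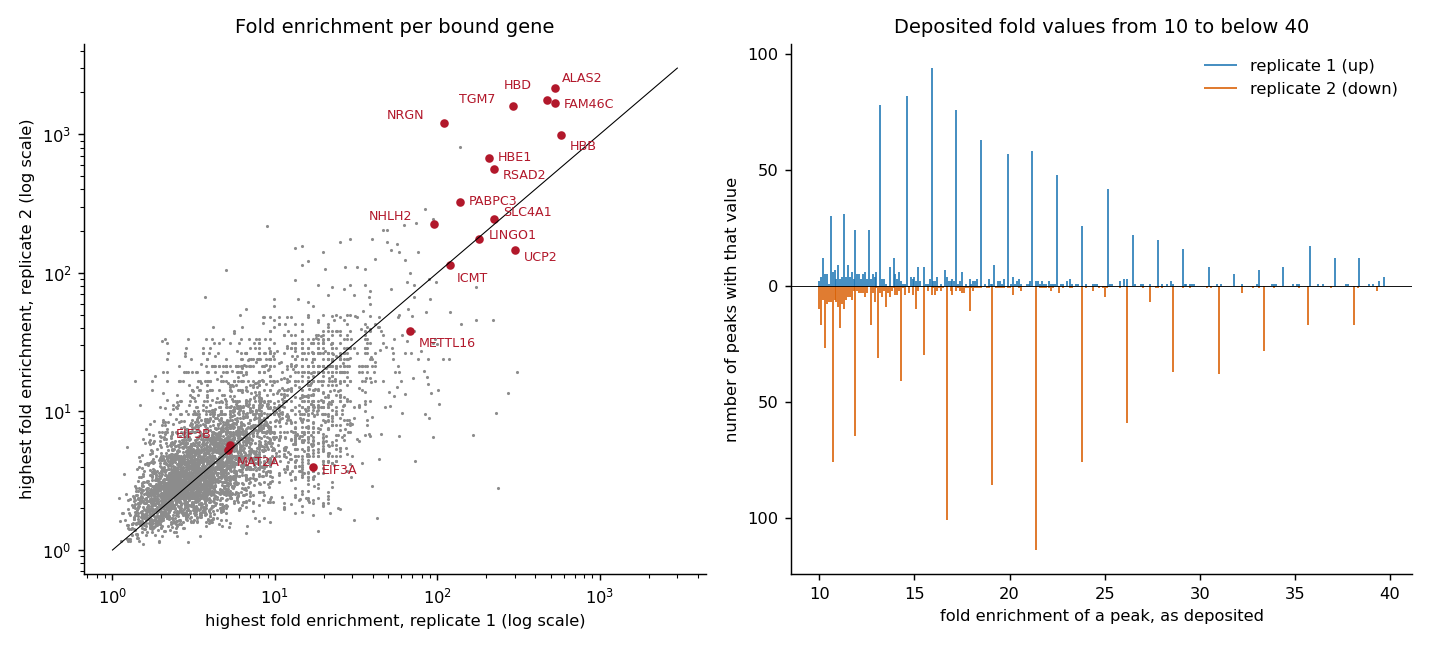
Left, highest fold enrichment of each of the 4612 bound genes in replicate 1 (horizontal) and replicate 2 (vertical), both on log scales, with the line of equality and the leading and fixed genes named in the text in red. Right, number of peaks at each deposited fold value from 10 to below 40, replicate 1 upwards and replicate 2 downwards. Many, but not all, of the peaks stand at whole multiples of the steps of 1.32 and 1.19.

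The 15 bound genes with the highest fold enrichment, ranked by the lower of the replicates, were led by genes of red blood cells. HBB (chromosome 11, 5225464 to 5229395, minus strand), the beta chain of haemoglobin, was enriched 576-fold in replicate 1 and 986-fold in replicate 2, with log10 p-values of -6480 and -12100. Its peak covered the same 418 bases of exons 1 to 3 in both. ALAS2 (chromosome X, 55009055 to 55030977, minus strand), the enzyme that starts haem synthesis in erythroid cells, was enriched 526-fold and 2170-fold (log10 p of -332 and -510) over the same 1580 bases of exons 2 to 11. The delta chain HBD reached 474-fold and 1770-fold (log10 p of -788 and -1180). The embryonic epsilon chain HBE1 reached 208-fold and 675-fold (log10 p of -6380 and -9800), and SLC4A1, the band 3 anion exchanger of the red cell membrane, 224-fold and 243-fold (log10 p of -60 and -52.5). The globin genes are close copies of each other, and how the authors treated reads that fit several of them was not given in the sources used here.

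The other leading genes had varied functions, and NRGN among them is also in the list of platelet and megakaryocyte genes counted further on. FAM46C (current symbol TENT5C), a cytoplasmic poly(A) polymerase, was enriched 528-fold and 1690-fold (log10 p of -245 and -375) over 1498 bases of exons 1 to 2. RSAD2, the interferon-induced antiviral protein viperin, reached 223-fold and 565-fold (log10 p of -59.7 and -124), and UCP2, a carrier of the mitochondrial inner membrane, 301-fold and 145-fold (log10 p of -106 and -74.8). NRGN, neurogranin, reached 110-fold and 1210-fold (log10 p of -207 and -320), and PABPC3, an intronless relative of the poly(A)-binding protein gene PABPC1, 137-fold and 325-fold (log10 p of -215 and -288). ICMT, which methylates prenylated proteins, reached 119-fold and 113-fold (log10 p of -31.3 and -94.1) over the same 151 bases at its first exon. LINGO1, TGM7 and NHLH2 also belong to the group. All 15 had a log10 p of -24.8 or less in both replicates. The steps were counted only for fold values below 40, so these genes cannot be set against the peaks on the steps. Replicate 2 gave the higher fold in 12 of them and replicate 1 in LINGO1, UCP2 and ICMT.

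LINGO1 (a leucine-rich repeat membrane protein of neurons), NHLH2 (a basic helix-loop-helix transcription factor) and TGM7 (a transglutaminase) are leading genes with 1 short peak per replicate that lay wholly in coding sequence, so these peaks are shown in full. Capitals mark matches to the 20 hexamers that were most concentrated in peaks, as described further on.
LINGO1, chr15:77615566-77615715, minus strand: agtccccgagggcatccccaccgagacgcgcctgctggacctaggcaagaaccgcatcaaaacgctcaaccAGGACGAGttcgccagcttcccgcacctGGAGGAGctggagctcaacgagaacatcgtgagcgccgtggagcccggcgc
NHLH2, chr1:115838171-115838350, minus strand: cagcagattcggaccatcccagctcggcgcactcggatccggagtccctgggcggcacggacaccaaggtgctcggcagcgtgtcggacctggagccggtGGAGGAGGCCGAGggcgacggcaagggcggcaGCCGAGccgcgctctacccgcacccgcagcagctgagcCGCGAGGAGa
TGM7, chr15:43281955-43282562, minus strand, exons 8 to 9 joined: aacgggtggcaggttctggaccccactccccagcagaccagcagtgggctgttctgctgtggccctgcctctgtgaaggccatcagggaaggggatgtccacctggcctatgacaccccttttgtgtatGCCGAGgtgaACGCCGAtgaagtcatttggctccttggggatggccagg
The LINGO1 interval of 150 bases is the replicate 2 peak (174-fold, log10 p of -37.2), and the replicate 1 peak (181-fold, log10 p of -96.4) ran 90 bases further upstream, to 240 bases. The NHLH2 interval of 180 bases is the replicate 1 peak (95.4-fold, log10 p of -24.8), which lay inside the 240-base peak of replicate 2 (226-fold, log10 p of -48.8). The TGM7 peak of 178 bases was identical in both (291-fold and 1590-fold, with log10 p-values of -320 and -492). Their GC contents were 65.3%, 72.2% and 60.7%, and 10.0%, 15.6% and 7.30% of their bases were in a marked hexamer.

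Since HepG2 is a liver line, marker genes were counted next. A peak marks enrichment over input and is not a level. Of 10 hepatocyte markers, 7 were bound, including AFP, APOA1, APOB, SERPINA1, HNF4A and TF, ALB and FGB had a peak in 1 replicate, and TTR had none. Of 5 leukocyte markers none was bound, 2 had a peak in 1 replicate, among them PTPRC, and CD3E, CD14 and LST1 had none. In a wider list of 12 leukocyte genes LYZ, lysozyme, was bound (1.77-fold and 1.45-fold), 3 genes had a peak in replicate 1 only, among them CD68 (2.65-fold), and 8 had none. None of 5 fibroblast markers (COL1A1, COL1A2, COL3A1, DCN and PDGFRB) had a peak, and of 4 endothelial markers VWF was bound (35.8-fold and 33.4-fold), while PECAM1, CDH5 and KDR had no peak. A list of 11 fibroblast and endothelial genes had 3 bound (27.3%), adding to VWF the angiopoietin receptor TEK (14.6-fold and 14.3-fold) and ACTA2, smooth muscle actin (1.75-fold and 1.43-fold). The VWF and TEK values recur among the peaks on bound genes. In replicate 1, 17 peaks had 35.8-fold and 82 had 14.6-fold enrichment, and in replicate 2, 28 had 33.4-fold and 41 had 14.3-fold. Peaks on the steps described above had larger p-values, and those of VWF and TEK are not given here. A list of 40 erythroid genes and a list of 15 platelet and megakaryocyte genes were added after the leading genes had been seen, so their counts are no independent evidence. Of the erythroid genes 16 (40%) were bound, 6 had a peak in 1 replicate and 18 had none, beside 22.9% bound among all protein coding genes. The median over the bound ones of the lower fold enrichment was 52.6, against 3.44 over 4592 bound genes. CA2 (67.5-fold and 100-fold), BPGM (65.4-fold and 85.3-fold) and HBA1 (39.7-fold and 174-fold) were among them. The erythroid genes without a peak included the defining genes GATA1, KLF1, TAL1, AHSP, HBG1 and HBG2. Of the platelet genes 7 (46.7%) were bound, with a median lower fold of 41.1, led by NRGN, PLEK (94.0-fold and 245-fold), ITGA2B (56.3-fold and 162-fold) and ITGB3 (41.1-fold and 126-fold), while PF4 and PPBP had no peak. The source of these transcripts was not tested.

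The genes of the tagged protein and of the translation factors studied beside it were inspected individually. METTL16 (chromosome 17, 2405562 to 2511891, minus strand) had 3 peaks in replicate 1 and 4 in replicate 2. A peak in the coding sequence of exons 9 to 10 was the same 601 bases in both, with 4.15-fold and 6.11-fold enrichment and log10 p-values of -234 and -346. Peaks in the 3′ UTR of exon 10 reached 67.5-fold over 300 bases in replicate 1 and 38.1-fold over 240 bases in replicate 2. In coding sequence, mRNA of the Flag-METTL16 transgene and endogenous mRNA cannot be told apart in these lists. EIF3A (chromosome 10, 119033670 to 119080817, minus strand), the largest eIF3 subunit, had 1 peak over exons 12 to 22 in replicate 1 (2518 bases, 17.2-fold, log10 p of -367) and 2 peaks in replicate 2, the higher over exons 14 to 22 (1949 bases, 4-fold, log10 p of -85.4). The replicates shared 82.2% of its bases although the fold values were far apart. EIF3B had its main peak over the same 599 bases of exons 1 to 2 in both (5.32-fold and 5.70-fold) and smaller ones downstream.

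The position of the peaks along the mRNA was compared with windows of 181 bases tiled along the canonical transcripts of the bound genes. Coding sequence held 62.5% of peak centres in replicate 1 and 68.2% in replicate 2, against 50% of windows, a ratio of 1.25 and 1.36. The 3′ UTR held 31.9% and 25.9%, against 45.2% of windows, and the 5′ UTR 5.61% and 5.88%, against 4.73%. Within the coding sequence the ratio was highest in the last of 10 bins in replicate 1 (1.56) and in the bin before it in replicate 2 (1.50). It was lowest in the middle of the coding sequence in replicate 1 (1.04). In the 3′ UTR it fell from 0.884 and 0.773 just after the coding sequence to 0.367 and 0.240 in the last bin. The replicates differed most in this region, since 53.2% of the 3′ UTR peaks of replicate 1 overlapped a replicate 2 peak, against 69.6% of its coding peaks, whereas in replicate 2 these shares were 67.1% and 65.0%.

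**Figure D4:**
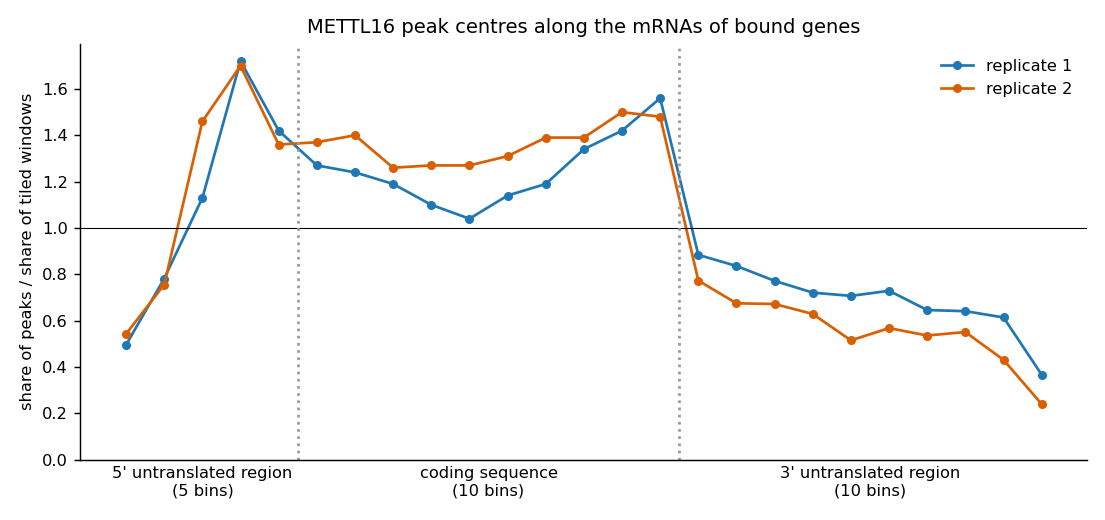
Share of METTL16 peak centres divided by the share of tiled 181-base windows (vertical axis) in 5 bins of the 5′ UTR, 10 bins of the coding sequence and 10 bins of the 3′ UTR of bound genes, for replicates 1 and 2. The horizontal line marks a ratio of 1; both replicates lie above it throughout the coding sequence and below it throughout the 3′ UTR.

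METTL16 peaks were rich in G and C. Their mean GC content was 59.8% in replicate 1 and 61.2% in replicate 2 (mean 60.5% ± 1.04, SD, n = 2), against 51.8% for the tiled windows of the same transcripts. The difference held in each region. Peaks in the 5′ UTR had 72.2% and 72.3% against 67.8% for windows, peaks in coding sequence 60.3% and 61.4% against 55.6%, and peaks in the 3′ UTR 56.3% and 58.1% against 45.8%. Only 6.37% and 4.21% of peaks were below 45% GC, against 30.9% of windows.

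Bound transcripts differed from others in the same direction. Their median canonical length was 3580 bases and their median GC content 54.2%, against 2543 bases and 47.6% for 12507 protein coding genes with no METTL16 peak. Genes with a peak in 1 replicate only lay at 3256 bases and 47.6%. By GC content in 5 equal classes, the share of bound genes rose from 11.5% in the lowest class to 16.9%, 21.4%, 27.7% and 37.3%. By length it rose from 10.7% to 20.4%, 24.9%, 27.8% and 30.8%. When the genes were limited to those with a peak in any of the 6 lists, of which 42.8% were bound, the shares by length were nearly level (35.7% to 45.4%), whereas those by GC content still rose from 20.8% to 62.2%. Chromosomes differed too. The share of bound genes was highest on chromosome 16 (36.1%), 22 (33.6%) and 20 (33.1%) and lowest on X (14%) and 4 (14.8%).

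Set against all bases of the same transcripts, the sequences METTL16 is known to recognise were not concentrated in the peaks. ACAGAGA, the core shared by the U6 and MAT2A sites, occurred 14.2 times per 100 kb of peak in replicate 1 and 13.3 times in replicate 2, against 13.2 times per 100 kb of the same transcripts. At 3.47% and 3.50% of peaks against 2.29% of 181-base windows, its share by peak was higher, with many peaks wider than the windows. The longer forms were matched on the transcript strand of the bound genes, where TACAGAGAA had 155 sites and TACAGAAAA 204 within an exon. Of the TACAGAGAA sites 11 (7.10%) and 12 (7.74%) lay under a peak in replicates 1 and 2, and of the TACAGAAAA sites 10 (4.90%) and 8 (3.92%), whereas 14.7% and 15.2% of all bases of these transcripts did. The replicate 2 numbers include MAT2A sites 2 to 6, all under 1 peak. These comparisons were not matched for GC content, which was higher in peaks than in the transcripts. Hexamers with 2 G or C letters also had lower densities in peaks, at a median ratio of 0.506 and 0.456 in replicates 1 and 2. With 3 such letters it was 0.901 and 0.887. The part of GC content in the motif values was not tested. A match of letters does not show a hairpin or binding.

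Sites under a peak in both replicates numbered 3 for TACAGAGAA and 4 for TACAGAAAA. They are shown because they are the places outside MAT2A where the known letters and both lists coincide, with the match in capitals and 10 bases on either side.
ANKRD11, chr16:89282650-89282678, minus strand: tctccatgagTACAGAGAAgactccaacg
PPIG, chr2:169637025-169637053, plus strand: gtaccatagaTACAGAGAAcaggaataca
STK39, chr2:168063528-168063556, minus strand: taatgaagacTACAGAGAAgcttcttctt
FCF1, chr14:74735791-74735819, plus strand: gtatttttaaTACAGAAAAgtatgcctcg
RNF40, chr16:30774334-30774362, plus strand: ggcactgcccTACAGAAAAggtctgcctg
SLC38A3, chr3:50214436-50214464, plus strand: aagagcttccTACAGAAAAgtcccagcaa
TXLNA, chr1:32187984-32188012, plus strand: atgaagctccTACAGAAAAagcagagcca
The sites of ANKRD11 (a chromatin regulator), PPIG (a nuclear cyclophilin), STK39 (a kinase of ion transport), SLC38A3 (an amino acid transporter) and TXLNA lie in coding sequence. Those of FCF1, a factor of small ribosomal subunit assembly, and RNF40, a histone H2B ubiquitin ligase, lie in the 3′ UTR.

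Hexamers were counted instead to describe the peaks without a preset motif. The ratio of the hexamer's density in peaks to that in the whole transcripts followed its GC letters. The median ratio was 0.151 and 0.107 in replicates 1 and 2 for hexamers with no G or C, 0.901 and 0.887 with 3, and 1.84 and 2.08 with 6. The highest ratios, however, were not those of hexamers made of G and C alone. They belonged to CGACGA (2.26 and 2.43), CGAGGA (2.26 and 2.36), GGACGA (2.24 and 2.41), GACGAG (2.23 and 2.35) and GAGGAG (2.32 and 2.21), which hold 4 G or C letters and mix them with A. The 20 leading hexamers took up 5.35% and 5.44% of peak bases, against 2.70% of transcript bases. TATATA had the lowest ratio in replicate 1 (0.0782), at 0.0602 in replicate 2. The ratios were not matched by region, and coding sequence held more of the peak centres than of the windows. The part of region in the hexamer ratios was not tested.

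The functions of the bound genes were described with 39 gene lists, of which 28 had a larger bound share than the 22.9% of all protein coding genes. Among protein coding genes with a peak in any of the 6 lists, 42.8% were bound, and 23 gene lists lay above that share. No list was tested, and long or GC-rich genes were bound more often overall. Genes acting on chromatin and RNA stood high. Of 83 chromatin remodellers and histone lysine modifiers, 54 (65.1%) were bound and 17 had no peak, with a median transcript length of 6094 bases. The histone H3 lysine 4 methyltransferases SETD1B and KMT2A reached 26.5-fold and 28.6-fold and 26.5-fold and 21.4-fold, and the remodeller CHD3 21.2-fold and 33.4-fold. The equal replicate 1 values of SETD1B and KMT2A are a whole multiple of the step described above. Other values given for list members also recur among the peaks on bound genes. In replicate 1, 57 peaks had 19.9-fold, 58 had 21.2-fold and 48 had 22.5-fold enrichment. In replicate 2, 86 had 19.1-fold, 114 had 21.4-fold and 76 had 23.8-fold. Most list members are given without p-values, which were larger on the steps. Of 87 splicing proteins 49 (56.3%) were bound, led by HNRNPUL2 (34.0-fold and 39.3-fold), SNRNP70 (20.5-fold in both), HNRNPD (19.9-fold and 23.8-fold) and HNRNPU (19.9-fold and 19.1-fold). Their median length of 2477 bases and GC content of 46.0% were below the medians of genes with no METTL16 peak. For the 3226 of those genes with a peak in another list of the series, the medians were 3501 bases and 44.2%. The part of length and GC content in the splicing share was not tested. Of 54 DEAD and DEAH box helicases 28 (51.9%) were bound, including DDX11 (13.9-fold and 19.1-fold) and DDX52 (15.9-fold and 11.9-fold).

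**Figure D5:**
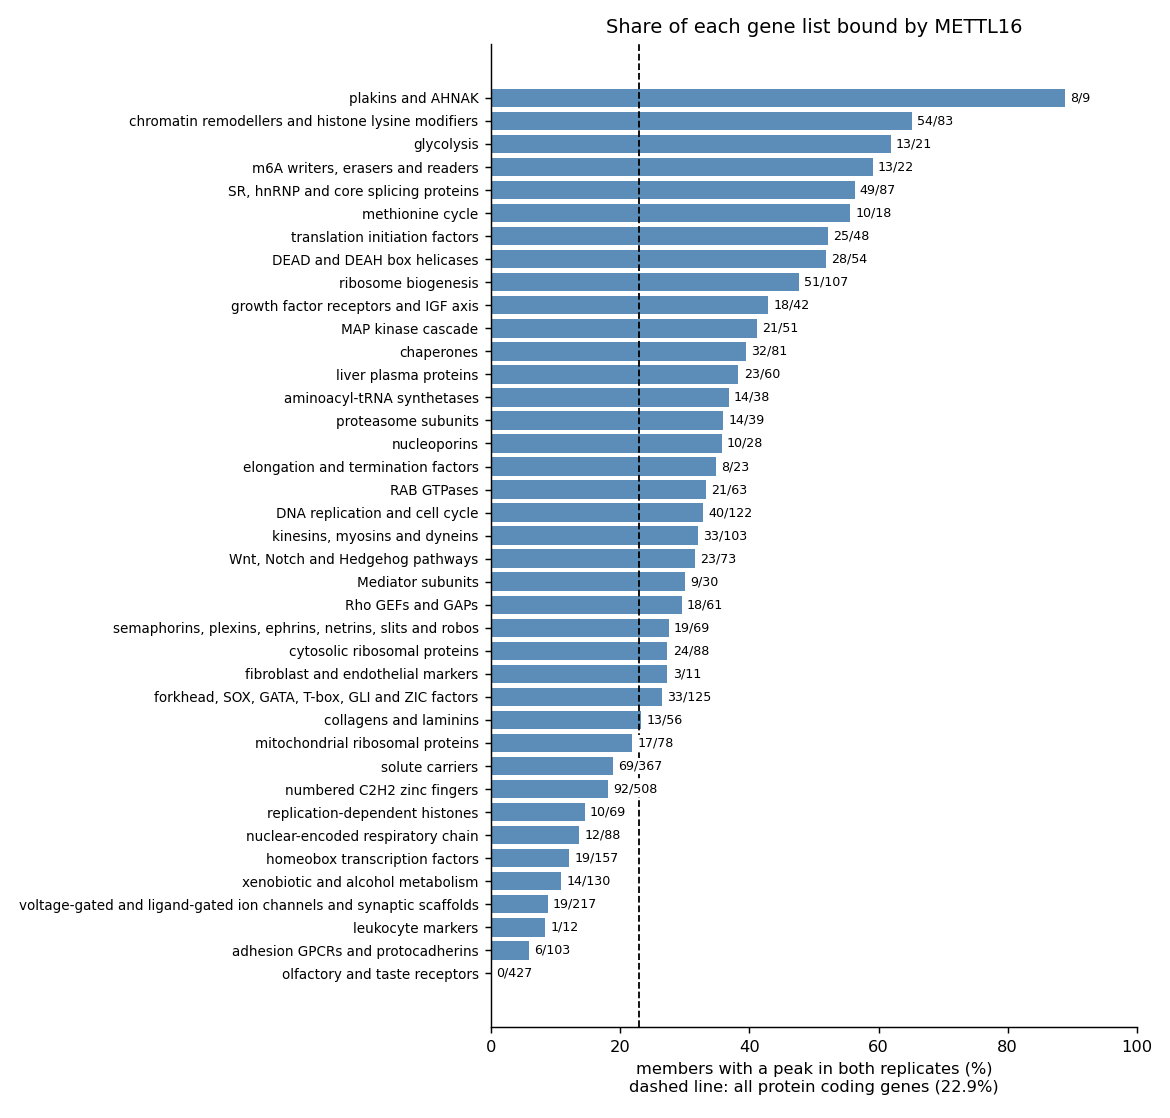
Share of the members of each of 39 gene lists with a METTL16 peak in both replicates (horizontal axis, percent), with bound and total members beside each bar. The dashed line is the share of all protein coding genes (22.9%); plakins, chromatin factors, glycolysis, m6A factors and splicing proteins lie highest, and olfactory and taste receptors had no bound member.

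Genes of the translation machinery were unevenly represented. Of 48 translation initiation factor genes 25 (52.1%) were bound, 11 had a peak in 1 replicate and 12 in neither. Their enrichment was low, with a median lower fold of 2.09 against 3.44 over all bound genes. At a fold of at least 4 in both replicates their bound share was 6.25%, below the 9.64% of all protein coding genes. EIF3B and EIF3A, described above, EIF5AL1 (5.74-fold and 15.5-fold), an intronless relative of EIF5A, and EIF4G2 (3.87-fold and 16.7-fold) led this list. EIF5A itself was bound and is counted both here and among the elongation and termination factors. Of 107 ribosome biogenesis genes 51 (47.7%) were bound, led by NOL9, a nucleolar kinase of ribosomal RNA processing (84.8-fold and 52.4-fold), GNL3L (174-fold and 45.3-fold), NOP9 (8.48-fold and 16.7-fold) and PELP1 (7.65-fold and 10.1-fold). Of 88 cytosolic ribosomal protein genes, with a median length of 858 bases, 24 (27.3%) were bound, near the 22.9% of all protein coding genes. A further 25 had a peak in 1 replicate and 39 in neither. Among members of this list with a peak in any of the 6 lists 43.6% were bound, against 42.8% of all such genes. At a fold of at least 4 the share was 5.68%, against 9.64%. Of 78 mitochondrial ribosomal protein genes 17 (21.8%) were bound, but in replicate 2 alone 47.4% had a peak, against 31.5% of all protein coding genes. Of 38 aminoacyl-tRNA synthetases 14 (36.8%) were bound, and at a fold of at least 4 their share was 5.26%, against 9.64%. Among members with a peak in any of the 6 lists the share was 41.2%, against 42.8% of all such genes. Among 23 elongation and termination factors 8 (34.8%) were bound, led by EEF2K (6.62-fold and 19.1-fold) and EEF1A2 (26.5-fold and 6.19-fold). Of their members with a peak in any of the 6 lists 42.1% were bound, against the same 42.8%. ABCE1, EEF1E1, EEF1G, EIF5A2, GFM1, GFM2, GSPT1, GSPT2 and MTRF1 had no peak.

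The methionine cycle and the m6A machinery, to which METTL16 itself is tied, were also counted. Of 18 methionine cycle genes 10 (55.6%) were bound. They included BHMT, which remethylates homocysteine (5.74-fold and 21.4-fold), AMD1, which decarboxylates S-adenosylmethionine (18.5-fold and 5.36-fold), and MAT2A. MAT1A, the liver form of the MAT2A enzyme, was at 2.99-fold and 2.53-fold. AHCY, AHCYL2, CTH, MAT2B and MTRR had a peak in replicate 2 only, and GNMT, MTAP and SMS had none. Of 22 m6A writers, erasers and readers 13 (59.1%) were bound. After METTL16 itself came ZC3H13, a subunit of the m6A writer complex (91.4-fold and 13.5-fold), YTHDF3, a reader (9.27-fold and 8.34-fold), and ALKBH5, an eraser (4.07-fold and 6.67-fold). METTL3, the catalytic writer, had a peak in replicate 2 only (2.20-fold), and CBLL1, METTL14, METTL5, YTHDC2 and YTHDF2 had none.

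Metabolic and liver genes were counted next. Of 21 glycolysis genes 13 (61.9%) were bound, among them LDHB (22.5-fold and 7.94-fold), HK2 (6.47-fold and 21.8-fold), HK1 (4.16-fold and 5.96-fold) and PFKL (4.06-fold and 3.97-fold), and 4 had no peak, among them LDHA and PFKM. Of 60 liver plasma protein genes 23 (38.3%) were bound, with a median lower fold of only 1.65. SERPINF2 (5.31-fold and 6.11-fold), SERPINA1 (3.15-fold and 2.91-fold), APOB (2.70-fold and 2.75-fold) and A1BG (5.81-fold and 2.38-fold) led it. Of 88 nuclear-encoded respiratory chain genes, with a median length of 757 bases, 12 (13.6%) were bound and 22 had a peak in 1 replicate. In replicate 2 alone the share of this list was 35.2%, against 31.5% of all protein coding genes, and in replicate 1 alone 17%, against 29%. Of 130 genes of xenobiotic and alcohol metabolism 14 (10.8%) were bound, with CYP20A1 (28.5-fold and 21.4-fold) and ALDH16A1 (8.28-fold and 5.66-fold) highest.

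Among signalling and structural genes, IGF2 stood out. This fetal growth factor was enriched 172-fold and 78.8-fold over 4606 and 4546 bases in 1 wide peak per replicate, with log10 p-values of -61700 and -24600, the lowest of each list. Of 42 growth factor receptor and IGF axis genes 18 (42.9%) were bound, including IRS2 (19.9-fold and 28.6-fold), FGFR3 (10.6-fold and 14.3-fold) and IGF1R (14.2-fold and 8.93-fold), which carried 14 and 11 peaks. Of 9 plakin and AHNAK genes, a family of giant cytoskeletal proteins with a median transcript length of 16005 bases, 8 (88.9%) were bound. After PLEC came EVPL (58.3-fold and 50-fold), EPPK1 (22.5-fold and 23.8-fold) and MACF1 (22.5-fold and 16.7-fold), and AHNAK2 had a peak in replicate 2 only (19.1-fold). Of 51 MAP kinase cascade genes 21 (41.2%) were bound.

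Several large gene families lay below the share of all protein coding genes. None of 427 olfactory and taste receptor genes had a METTL16 peak in either replicate, which allows a bound share of up to 0.703%, taking 3 counts as the limit of a count of 0. Of 103 adhesion GPCR and protocadherin genes 6 (5.83%) were bound, of 217 ion channel and synaptic scaffold genes 19 (8.76%), of 157 homeobox genes 19 (12.1%) and of 508 numbered C2H2 zinc finger genes 92 (18.1%). At a fold of at least 4 the zinc finger genes lay above the background, at 11% against 9.64%. The bound members of the adhesion, channel, homeobox and zinc finger lists had median lower folds of 4.18, 7.94, 4.76 and 5.32 in that order, against 3.44 over all bound genes. The part of the fold steps in these medians was not tested, and p-values were not compared. Besides LINGO1, the channel list was led by GRIN2C, a glutamate receptor subunit (46.4-fold and 202-fold), CACNA1B (38.4-fold and 39.3-fold) and SHANK1 (30.5-fold and 69.1-fold), and the homeobox list by RAX (66.2-fold and 54.8-fold), SIX5 (38.4-fold and 38.1-fold), CUX2 (22.5-fold and 78.6-fold) and TLX1 (19.9-fold and 38.1-fold). Of 69 replication-dependent histone genes 10 (14.5%) were bound. Many members of these families had no peak in any of the 6 lists. Those with such a peak were 2 olfactory and taste receptor, 44 adhesion, 56 channel, 51 homeobox, 24 histone and 367 zinc finger genes. Of those members 0%, 13.6%, 33.9%, 37.3%, 41.7% and 25.1% were bound, in that order. Among all protein coding genes with such a peak it was 42.8%.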

How the data were processed

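Flag-METTL16 RIP and input libraries of HepG2 cells (2 of each) had been made from UV cross-linked cells with rRNA-depleted RNA and a stranded kit. Per the labels and the study's methods, the authors mapped the reads with STAR (GRCh38), and exomePeak at its defaults found peaks of RIP over input in each replicate. Tool versions, the annotation, the treatment of multimapped reads and whether each RIP had its own input are not given in the sources used here. The deposited lists give a p-value per peak, scores holding its log10 and that of the adjusted p (at most 0.0468), and the fold enrichment over input, a linear ratio. No read numbers were used, so the depth per sample is unknown and intervals cover counting error only. Near-identical genes (globins, PABPC3, EIF5AL1) are uncertain. The files of the eIF3 RIP samples served only to count genes with a peak in any of the 6 lists.

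Peaks were matched to GENCODE release 44 genes by name and position. The Ensembl canonical transcript was used for length, GC content and regions (at least 0.5 of a peak on exons). Lists were read in Python 3.11.15 with pandas 2.3.3, numpy 2.4.6, scipy 1.17.1 and matplotlib 3.10.9, and the counting steps were tested on simulated data. Hexamers with at least 500 occurrences were compared. Named genes were the 15 with the highest lower-of-both fold, the 5 with the most peaks, the 5 with the widest coverage, fixed genes, up to 4 leading bound members per functional list with the unbound members of lists of up to 25 genes, and the 5 highest genes found in 1 replicate only. Some genes that this rule names are not reported here. Members and lists were chosen with earlier results of these data known. Alternatives were a fold of at least 4, the 5000 peaks with the smallest p-values, an adjusted p-value of at most 0.001, either replicate alone, peak overlap, genomic span and another background.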

Additional observations from a re-analysis of the deposited data

How the results depend on the processing

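Requiring a fold of at least 4 left 1937 bound genes, 1.86 peaks per gene, a median width of 240 bases, a GC content of 63.0%, a gene agreement of 44.5%, a base agreement of 41.8% and a Spearman coefficient of 0.514. With the 5000 peaks of smallest p-value there were 2174 bound genes, 1.83 peaks per gene, a median width of 316 bases, a GC content of 60.9%, a gene agreement of 55.4%, a base agreement of 49.0% and a coefficient of 0.736. With an adjusted p-value of at most 0.001 there were 3660 bound genes, 2.19 peaks per gene, a median width of 239 bases, a GC content of 60.6%, a gene agreement of 59.6%, a base agreement of 44.5% and a coefficient of 0.689. Genes with a peak in either replicate numbered 7554, and those whose peaks overlapped by at least 0.5 of their bases in both directions 2963. By genomic span the median width was 316 bases. With the peak of smallest p-value per gene the Spearman coefficient was 0.630, and Pearson's coefficient of log2 fold was 0.699. With 1 replicate left out, bound genes ranged from 5829 to 6337, peaks per gene from 2.07 to 2.26, median width stayed at 180 bases, and GC content ranged from 59.0% to 60.8%. Of the 39 functional lists, 14 lay above the background under all 8 settings, 7 below it under all, and 18 changed side, among them translation initiation factors, liver plasma proteins, cytosolic and mitochondrial ribosomal proteins, aminoacyl-tRNA synthetases, the respiratory chain, numbered zinc fingers and the leukocyte and the fibroblast and endothelial lists. The cause of these shifts was not tested. No paired analysis was possible because no result came from a test between groups. With 2 replicates and no read numbers, a gene without a peak cannot be told apart from a gene too thinly covered to call.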
